A study of Mus musculus with 5 samples.

Results

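Fibro-adipogenic progenitors (FAPs), the stromal cells that lie between muscle fibres, were compared between day 5 and day 2 after injection of notexin, a toxin from snake venom that kills the fibres. They are the cells the authors labelled FAPs: 828 of 2164 annotated cells at day 5 and 667 of 4903 at day 2, or 1495 of the 7067 cells of both days and of the 17923 cells of the series. The series profiled single cells from the shin's tibialis anterior muscle of C57Bl/6 mice, uninjured or at days 2, 5 and 7, with droplet libraries that count each tagged mRNA molecule (UMI). Muscles were digested with collagenase and dispase, red cells were lysed, and live cells were sorted by dye staining. Both groups were C57Bl/6 females given notexin, and the labels name no allele or other agent. The day 2 mouse was 7 months old and the day 5 mouse 4 months old, so age and day cannot be told apart. There was 1 library per day, so no test between days was possible, and each interval below covers counting error only. Uninjured FAPs (3516 cells, 2 runs in 1 matrix, 4-month females) and day 7 FAPs (1889 cells of both FAP labels, a 4-month male) are given beside them as levels.

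FAPs carry the receptor PDGFRA, make most of the muscle's collagen, and can turn into fat or matrix-producing cells. After acute injury they are known to divide, recruit and talk to immune cells, and feed muscle stem cells with growth factors and temporary matrix, before many die and the rest return to rest. Genes of resting stroma, of the cell cycle, of matrix and of inflammation therefore mark where a FAP population stands in repair.

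The label matched the fixed FAP markers. None of the 7 was at 0, and their summed level was 22383 counts per 1000000 UMIs (cpm) at day 2 and 36253 cpm at day 5, with at least 1 UMI in 99.7% and 100% of cells thinned to 1000 UMIs. Depth differed: FAPs held a median of 12321 UMIs at day 2 (4455 to 44433) and 2785 at day 5 (1002 to 12748), 9208654 and 2916545 UMIs in all. RNA of other cells also differed between the days. The 13 macrophage markers found summed to 3390 cpm in day 2 FAPs and 449.5 cpm at day 5, 7.84% and 2.50% of the immune cells' own level. The 11 mature muscle markers summed to 30.2 and 876 cpm. One barcode was shared by the FAPs of both days. Of 10116 genes with at least 50 UMIs over both days (called measured), 1494 were at least 2-fold higher at day 5 (14.8%) and 1032 at least 2-fold lower (10.2%), with a median log2 ratio of 0.12. Centred on that median, the counts were 1145 higher and 1286 lower.

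Mitotic genes were the gene group with the lowest ratios: 17 of 18 measured members were at least 2-fold lower at day 5, none was higher, and their median log2 ratio was -3.59. Birc5, which encodes the survivin subunit of the chromosomal passenger complex, stood at 1.41 cpm in uninjured FAPs, 71.1 at day 2, 1.03 at day 5 and 4.92 at day 7. Its log2 ratio of day 5 over day 2 was -6.11 (95% interval -8.39 to -4.56). Top2a, the topoisomerase that untangles chromosomes, stood at 21.9 and 1.03 cpm (log2 ratio -4.41, -6.70 to -2.85). Mki67, the standard proliferation marker, stood at 15.0 cpm at day 2 and was met by 1 UMI in all day 5 FAPs, 0.343 cpm (log2 ratio -5.45, -10.76 to -2.95). Day 2 was thus the high day for all 3 genes, and days 0, 5 and 7 were all below it. Hmgb2, a chromatin protein, was the member within 2-fold, at 115 and 75.4 cpm. After thinning to 1000 UMIs, 34 of 667 FAPs at day 2 (5.10%, 3.56 to 7.05) had 3 or more UMIs of the list, against 1 of 828 at day 5 (0.121%, 0.00306 to 0.671). In immune cells the same share was 5.66% and 8.21%, the other way round, and the immune median log2 ratio of the list was -0.66. Among FAPs with 5000 to 12000 UMIs, 5 of 6 measured members were at least 2-fold lower. Among FAPs without a UMI of the mature muscle markers it was 6 of 14, but 115 day 5 FAPs remained there. A count of 0 was replaced by 3 UMIs, which can hold a member absent at day 5 within 2-fold. Mki67 and Ccnb1 each had UMIs in 1 of all 828 day 5 FAPs, so the 6 of 14 cannot tell whether the difference was kept.

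Replication genes were split. Of 17 measured members 5 were at least 2-fold lower and 1 higher, with a median of -0.60. Tyms, which makes thymidylate, stood at 32.9 cpm at day 2 and 3.43 at day 5. Pcna, the sliding clamp of the replication fork, was the member above 2-fold, at 25.4 and 53.5 cpm (log2 ratio 1.07, 0.77 to 1.37). Among inhibitors of cyclin-dependent kinases, Cdkn1c (p57) went from 97.0 to 442 cpm and Cdkn1b (p27) from 15.4 to 82.3 cpm, with log2 ratios of 2.19 (2.06 to 2.31) and 2.42 (2.11 to 2.73). Cdkn1b was also higher at day 5 in immune, endothelial and muscle stem cells, by 2.66, 2.38 and 2.71.

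Many mitotic promoters carry a cell-cycle homology region, TTTGAA, to which repressor complexes of resting cells bind. The letters TTTGAA, searched on both strands from 250 bases before to 50 after each start, occurred for 12 of 15 mitosis list members with a RefSeq promoter (80.0%), and for 20.2% of the 27025 genes in the table. The 200 bases before the start of 3 members with the lowest ratios and a match there are shown because the group's ratios lay together. Matches are in capitals, and TTCAAA is the motif on the other strand. The windows, in GRCm38.p6, are chr7:135716380-135716579 on the minus strand for Mki67, chr4:118437344-118437543 on the minus strand for Cdc20 and chr11:99024190-99024389 on the minus strand for Top2a. A match is a description of the letters only.
Mki67: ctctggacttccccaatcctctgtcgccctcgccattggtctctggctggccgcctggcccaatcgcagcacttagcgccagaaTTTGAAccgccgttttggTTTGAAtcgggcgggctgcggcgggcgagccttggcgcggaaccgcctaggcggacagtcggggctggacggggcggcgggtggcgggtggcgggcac
Cdc20: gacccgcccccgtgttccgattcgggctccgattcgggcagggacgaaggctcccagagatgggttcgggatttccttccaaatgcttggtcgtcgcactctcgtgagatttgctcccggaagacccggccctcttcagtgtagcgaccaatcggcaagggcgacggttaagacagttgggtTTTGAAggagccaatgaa
Top2a: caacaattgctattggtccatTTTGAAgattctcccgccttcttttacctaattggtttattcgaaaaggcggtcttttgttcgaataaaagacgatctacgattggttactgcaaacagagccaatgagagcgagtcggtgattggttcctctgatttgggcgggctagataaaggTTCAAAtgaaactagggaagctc

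**Figure D1:**
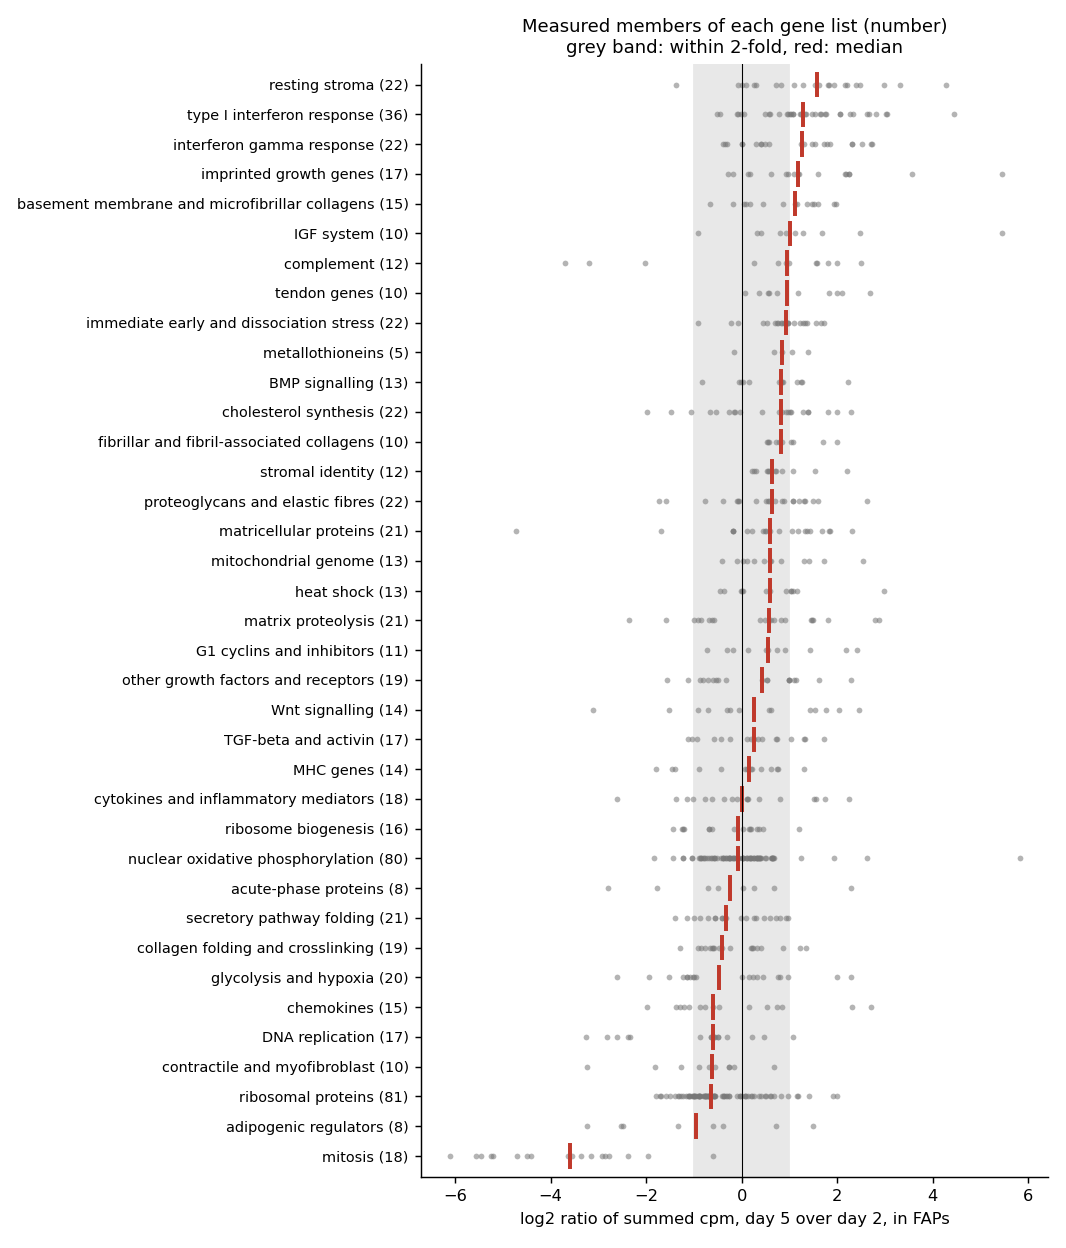
Each grey point is a measured member of a gene list, placed by its log2 ratio of day 5 over day 2 in FAPs (x axis), with lists on the y axis in order of their median (red bar) and the number of measured members in brackets. Mitosis lies apart at the bottom with a median of -3.59, and resting stroma (1.58) and both interferon lists (1.28 and 1.27) lie at the top.

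Genes of resting stroma stood higher at day 5. Of 22 measured members 14 were at least 2-fold higher and 1 lower, and the median was 1.58. The list's medians were 2.62, 0.44 and -0.06 in immune, endothelial and muscle stem cells, over 19, 3 and 5 genes with enough UMIs. Pi16, a marker of a stromal progenitor state shared by many tissues, had 2707 cpm without injury, 126 at day 2, 1252 at day 5 and 990 at day 7. That is a log2 ratio of 3.31 (3.21 to 3.41) between days 5 and 2. Gsn, the actin-severing protein gelsolin, had 44811, 2307, 10608 and 5082 cpm over the same days. Myoc, an extracellular olfactomedin-domain protein, had 2733, 140, 1111 and 183 cpm. Inmt, a methyltransferase of resting FAPs, had 172, 3.48, 67.9 and 32.5 cpm. Without thinning, Inmt was found in 17 FAPs at day 2 and 67 at day 5. Of its UMIs, 1 FAP held 46.9% at day 2 and 5 FAPs held 42.9% at day 5. For all 4 genes day 2 was the lowest day and uninjured muscle the highest, with day 5 above day 7. UMIs of Pi16 were found in 7.65% of thinned day 2 FAPs and 47.6% of day 5 FAPs, against 0.898% and 3.97% of immune cells. The exception was Cxcl14, a chemokine of resting FAPs, at 1881 cpm on day 2 and 730 on day 5 (log2 ratio -1.37, -1.43 to -1.30).

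This pattern was not even over the FAPs of day 5, and it went with depth. The FAPs of each day were put in 4 groups of equal size by their UMIs. At day 5 Gsn was at 20187 cpm in the group with the fewest UMIs (median 1390 per cell), then 20068, 13140 and 4180 cpm in the group with the most (median 6508). Myoc was at 2104, 1850, 1741 and 335 cpm in the same order, and Inmt at 171, 212, 54.5 and 5.64 cpm. Postn and Col1a1, genes of activated matrix-making cells, ran the other way: Postn at 655, 710, 1335 and 3326 cpm, and Col1a1 at 4376, 4449, 7098 and 11845 cpm. At day 2 the shallowest group had the most Gsn too, 5224 cpm against 1527 in the deepest, while Postn stayed between 762 and 894 cpm. The day 5 population thus held both low-UMI cells rich in resting genes and high-UMI cells rich in collagen.

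**Figure D2:**
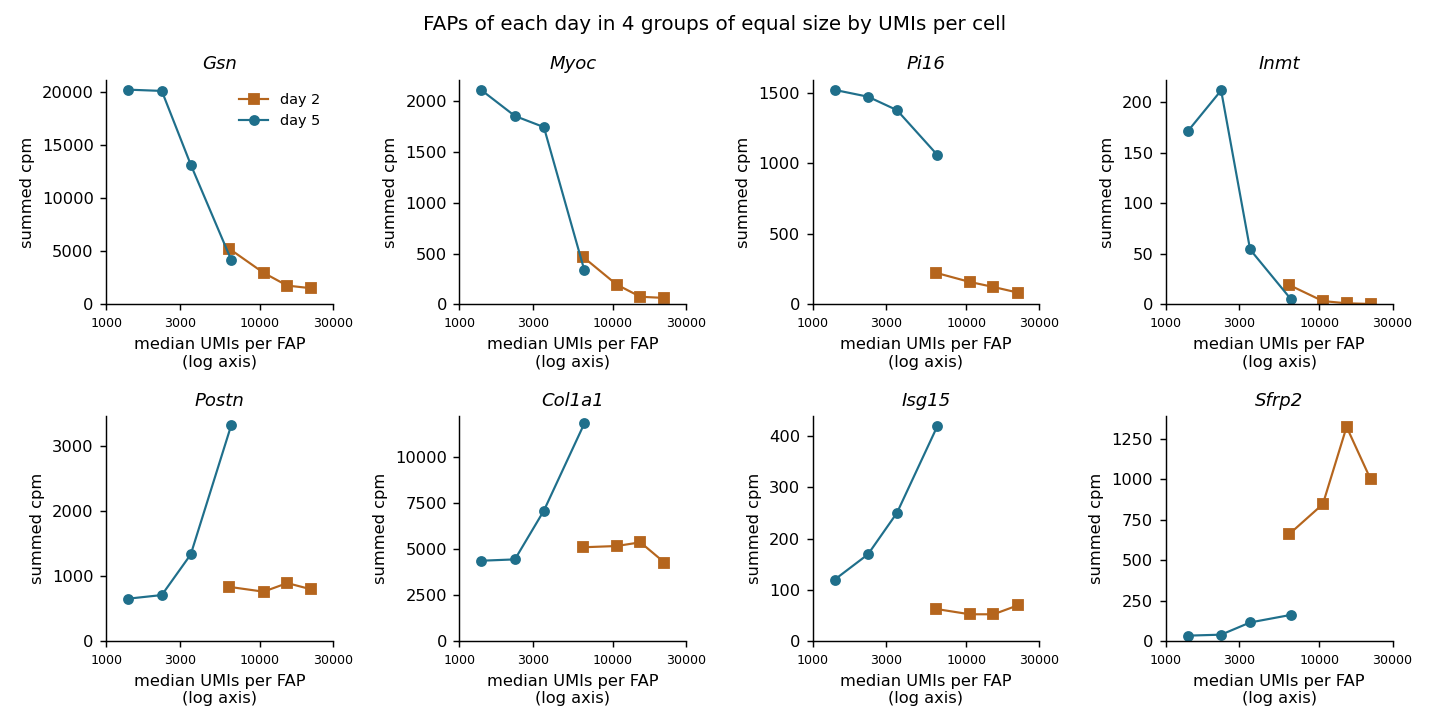
Summed cpm of 8 genes (y axes, each from 0) in 4 equal groups of FAPs by UMIs per cell, plotted at each group's median UMIs (x axis, log scale), for day 2 (squares) and day 5 (circles). At day 5 Gsn, Myoc and Inmt are lowest in the deepest group (4180, 335 and 5.64 cpm), below the shallowest group of day 2 (5224, 471 and 19.5 cpm), Pi16 and Isg15 lie above day 2 in all 4 groups, and Postn and Col1a1 reach 3326 and 11845 cpm.

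The comparison was therefore also made between FAPs with 5000 to 12000 UMIs on both days, 297 cells at day 2 and 176 at day 5, an alternative chosen after the data were seen. There 4 of 21 measured resting genes were at least 2-fold higher and 3 lower, with a median of 0.44, where 7.94% of 6736 measured genes were higher and 6.55% lower. Gsn stood at nearly the same level, at 3829 and 3846 cpm (log2 ratio 0.01, -0.04 to 0.06), and Myoc stood at 298 and 270 cpm (-0.15, -0.34 to 0.04). Pi16 was still higher at day 5, at 168 and 985 cpm (2.55, 2.39 to 2.71), and so was the atypical chemokine receptor gene Ackr3, at 59.1 and 132 cpm (1.16, 0.83 to 1.48). Smoc2, a matricellular calcium-binding protein, stood at 645 and 1285 cpm. Thinning each cell to 1000 UMIs keeps the same cells and left 14 members at least 2-fold higher, so the 2 checks on depth answer different questions. The resting list had a median of 7 UMIs per thinned FAP at day 2 (10th to 90th percentile 2 to 22) and 29 at day 5 (8 to 57).

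**Figure D3:**
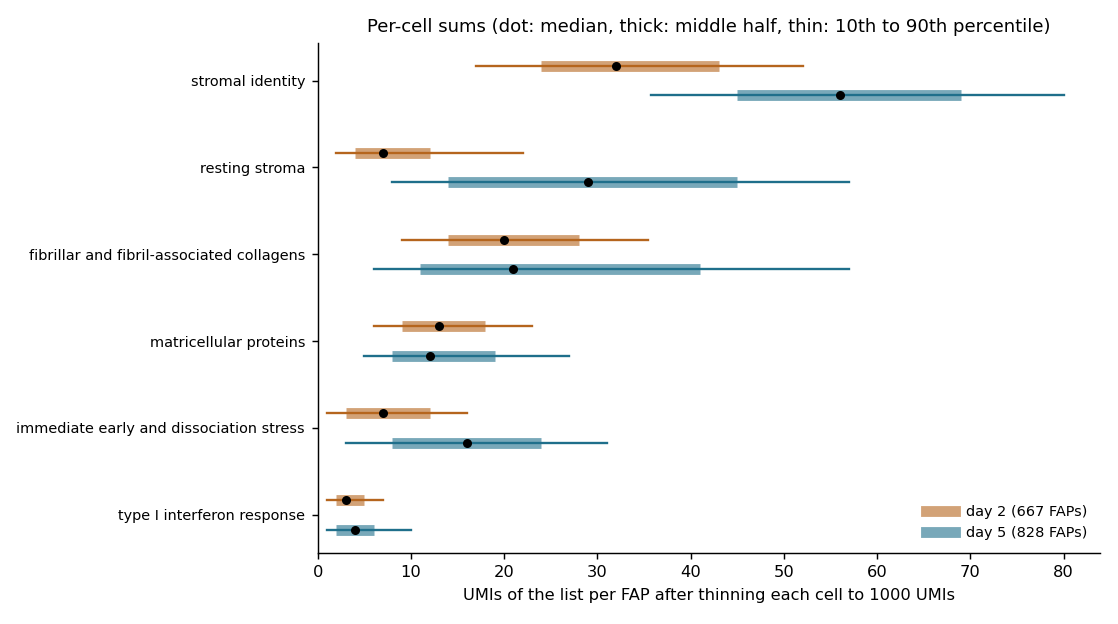
UMIs of 6 gene lists per FAP after thinning every cell to 1000 UMIs (x axis), for day 2 and day 5; dots are medians over cells, thick bars run from the 25th to the 75th percentile and thin bars from the 10th to the 90th. Resting stroma shifts from a median of 7 to 29, and collagens keep medians of 20 and 21 with a wider spread at day 5. Matricellular proteins have medians of 13 and 12.

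Fibrillar collagens give matrix its strength, and matricellular proteins tune how cells attach to it. Summed over all FAPs, most genes of both lists were higher at day 5, but these sums went with depth. The fibrillar list ran from 19207 cpm in the shallowest depth group of day 5 FAPs to 44678 in the deepest. At day 2 its groups lay between 18978 and 23755 cpm. Of 10 fibrillar and fibril-associated collagens 4 were at least 2-fold higher and none lower, and all 10 were above 0 (median 0.81). The list's medians were 2.77 in immune and 1.72 in muscle stem cells, over 9 and 4 genes with enough UMIs. Col1a1, a chain of type I collagen, stood at 2008 cpm without injury, 4848 at day 2, 8706 at day 5 and 14062 at day 7. Its log2 ratio of 0.84 (0.82 to 0.87) was below 2-fold in all FAPs and reached 1.25 (1.21 to 1.28) in the cells of 5000 to 12000 UMIs, at 5174 and 12293 cpm. Col14a1, which coats fibrils, stood at 237 and 777 cpm (1.71, 1.63 to 1.80). At day 5 both genes were highest in the depth group with the most UMIs.

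Of 21 matricellular genes 9 were at least 2-fold higher and 2 lower (median 0.60). Postn (periostin) stood at 107, 822, 2134 and 3742 cpm at days 0, 2, 5 and 7, a log2 ratio of 1.38 (1.33 to 1.43), and of 2.18 (2.10 to 2.26) between cells of like depth. It was found in 44.7% of thinned FAPs at day 2 and 38.9% at day 5, so its higher sum lay in a smaller share of cells. Tnc (tenascin C, a scaffold for muscle stem cells) stood at 0.979, 99.6, 207 and 124 cpm. However, 1 FAP held 9.27% of its day 2 UMIs and 1 FAP held 23.5% of its day 5 UMIs. Without thinning, Tnc was found in 171 FAPs at day 2 and 96 at day 5. In another setting, FAPs with any UMI of the 11 mature muscle markers were left out, which kept 461 cells at day 2 and 115 at day 5. The ratios of Postn and Tnc then turned to -0.15 and -0.53. This filter also selects by depth, since a cell with more UMIs is more likely to hold such a marker. At day 5 Postn stood at 655 cpm in the depth group with the fewest UMIs and 3326 in that with the most. Tnc stood at 82.2 and 348 cpm in the same groups. Whether muscle RNA or depth turned the ratios was not tested. Thbs4, a thrombospondin of tendon and muscle matrix, stood at 285 cpm at day 2 and 1019 at day 5 in all FAPs. Spp1 (osteopontin) was the lowest member, at 611 cpm on day 2 and 23 on day 5. It was found in 66.6% of thinned immune cells at day 2 and 28.8% of FAPs, and in immune cells it was lower at day 5 by -3.68. Macrophage RNA in FAPs also differed between the days (3390 and 449.5 cpm), and its part in Spp1 was not tested.

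Basement membrane genes, whose products form the sheet around fibres and vessels, were at least 2-fold higher in 8 of 15 cases and lower in none (median 1.12). The list was higher at day 5 in other cells too, with medians of 2.37 in immune and 1.64 in endothelial cells, over 13 and 7 genes. Nid1 (nidogen) stood at 277 and 1086 cpm (1.97, 1.89 to 2.04) and Hspg2 (perlecan) at 238 and 905 cpm (1.93, 1.84 to 2.01). Lama2, the laminin chain of muscle basement membrane, stood at 58.4 and 178 cpm. Col6a1 was the lowest member, at 1165 and 735 cpm (-0.66, -0.73 to -0.60). At like depth 5 of the 15 were at least 2-fold higher. Collagen folding and crosslinking enzymes did not follow the collagens: 2 of 19 were at least 2-fold higher and 1 lower, with a median of -0.40. Among proteoglycan and elastic fibre genes, 8 of 22 were higher and 2 lower, led by Ltbp4, which holds latent TGF-beta in the matrix, with a log2 ratio of 2.63 (2.49 to 2.78).

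Proteases and their inhibitors split, with 6 of 21 at least 2-fold higher and 2 lower. Timp1, an inhibitor induced by inflammation, stood at 45.2 cpm without injury, 890 at day 2, 295 at day 5 and 379 at day 7. Timp3, which binds to matrix, ran opposite, at 572, 44.8, 310 and 72.9 cpm. Plau (urokinase) stood at 69.9, 20.7, 152 and 19.1 cpm. In cells of like depth the differences were smaller: log2 ratios of -0.52 (-0.66 to -0.38) for Timp1, 0.49 (0.15 to 0.83) for Timp3 and 0.75 (0.27 to 1.24) for Plau. All 3 genes thus kept their direction and came within 2-fold.

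**Figure D4:**
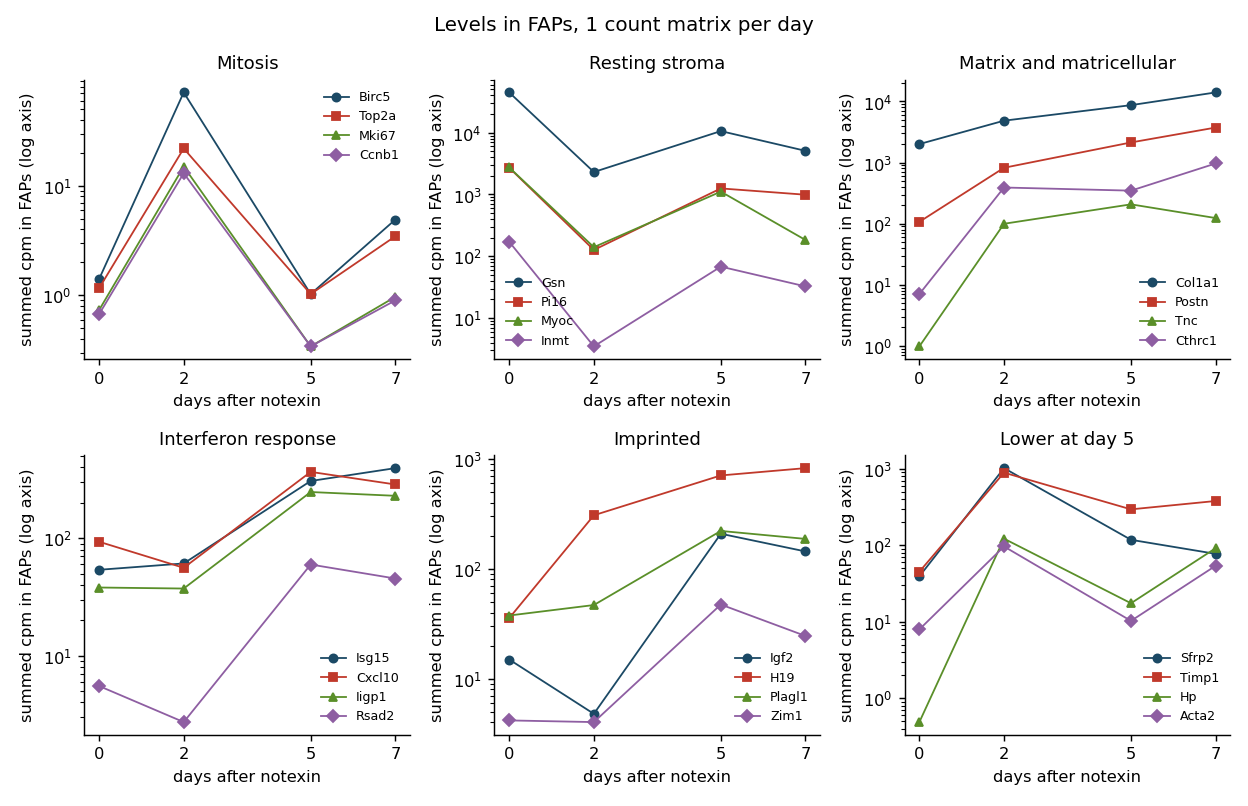
Summed cpm (y axes, log scale) of 24 genes in the FAPs of days 0, 2, 5 and 7 (x axes), 1 point per day and gene, with no error drawn because each day is 1 matrix. Mitotic genes peak at day 2, resting genes are lowest at day 2, interferon and imprinted genes are high at days 5 and 7, and Col1a1 and Postn are highest at day 7.

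Interferon response genes were higher at day 5. Type I interferon acts through the factor ISGF3, which binds interferon-stimulated response elements, and 24 of 36 measured members of that list were at least 2-fold higher and none lower (median 1.28). Rsad2 (viperin), an antiviral enzyme, stood at 2.71 and 59.7 cpm, with a log2 ratio of 4.46 (3.85 to 5.12). Without thinning, Rsad2 was found in 20 FAPs at day 2 and 72 at day 5, and 5 FAPs held 43.7% of its day 5 UMIs. Isg15, a ubiquitin-like protein, stood at 53.8, 60.9, 307 and 395 cpm at days 0, 2, 5 and 7 (2.33, 2.18 to 2.49). Ifit1, which binds foreign RNA, stood at 25.8, 25.1, 158 and 223 cpm, and 5 FAPs held 49.35% of its day 2 UMIs. Days 0 and 2 were close, and days 5 and 7 both above them, for Isg15 and Ifit1. Ifitm3, which blocks virus entry, went the other way, at 2546 and 1776 cpm (-0.52, -0.56 to -0.48), and the list summed to 3970 and 5313 cpm.

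Interferon gamma targets gave 12 of 22 at least 2-fold higher and none lower (median 1.27). Cxcl10, a chemokine that draws T and NK cells, stood at 55.9 and 367 cpm (2.71, 2.56 to 2.87) and was found in 3.30% of thinned FAPs at day 2 and 13.9% at day 5, against 1.21% and 5.91% of immune cells. Cxcl9, its relative, stood at 23.1 and 115 cpm, and 1 FAP held 29.6% of its day 2 UMIs. The GTPase gene Iigp1 stood at 37.2 and 247 cpm (2.73, 2.54 to 2.92). Both lists held in cells of like depth, where 19 of 29 and 11 of 21 measured members were at least 2-fold higher. The same lists were higher at day 5 in other cells of the libraries. The type I list had medians of 1.34, 1.21 and 1.21 in immune, endothelial and muscle stem cells, over 35, 9 and 4 genes with enough UMIs. NK and T cell markers summed to 56.4 cpm in day 2 FAPs and 172.8 cpm in day 5 FAPs. Whether a response shared by the muscle, the mouse or the library made this difference was not tested.

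The element's core, GAAA, then 2 bases of any kind, then GAAA, was searched on both strands of the same promoter windows. It occurred for 15 of the 27 measured type I members with a RefSeq promoter (55.6%), and for 3.99% of all 27025 genes. The 200 bases before the start are shown for 3 of the members with the highest ratios, since their ratios lay together; Ifit3b, a near-copy of Ifit3, is left out. Matches are in capitals, and they read TTTC, 2 bases, TTTC because all lie on the other strand. The windows, in GRCm38.p6, are chr12:26456453-26456652 on the minus strand for Rsad2, chr19:34583329-34583528 on the plus strand for Ifit3 and chr19:34640689-34640888 on the plus strand for Ifit1.
Rsad2: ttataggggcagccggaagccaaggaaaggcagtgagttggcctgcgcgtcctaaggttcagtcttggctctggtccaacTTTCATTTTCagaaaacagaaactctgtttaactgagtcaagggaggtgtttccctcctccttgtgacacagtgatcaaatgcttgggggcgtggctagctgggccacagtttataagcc
Ifit3: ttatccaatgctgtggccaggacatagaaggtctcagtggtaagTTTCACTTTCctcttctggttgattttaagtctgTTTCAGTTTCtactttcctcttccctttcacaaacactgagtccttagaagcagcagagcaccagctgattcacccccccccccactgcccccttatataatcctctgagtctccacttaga
Ifit1: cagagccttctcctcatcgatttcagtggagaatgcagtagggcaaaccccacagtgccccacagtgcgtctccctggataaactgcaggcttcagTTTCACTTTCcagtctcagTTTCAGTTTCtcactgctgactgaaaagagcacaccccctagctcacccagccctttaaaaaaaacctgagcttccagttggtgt

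Growth-related imprinted genes were higher at day 5 in 10 of 17 measured members by at least 2-fold, with none lower and a median of 1.18. The list was higher at day 5 in other cells too, with medians of 1.88 in immune and 2.05 in muscle stem cells, over 11 and 10 genes with enough UMIs. Igf2, a growth factor of the embryo and of regenerating muscle, stood at 14.9, 4.78, 209 and 144 cpm at days 0, 2, 5 and 7. Its log2 ratio of 5.45 (5.01 to 5.93) was the largest of any list member with UMIs on both days. Without thinning, it was found in 29 FAPs at day 2 and 121 at day 5, and the 5 cells with the most UMIs held 36.4% and 23.5% of it. H19, the noncoding RNA next to Igf2, stood at 35.6, 308, 709 and 827 cpm. Plagl1, a factor known to drive imprinted genes, stood at 46.8 and 221 cpm, and Zim1 at 4.02 and 47.3 cpm. At like depth, where all day 5 FAPs came from the deepest group, 11 of 17 members were at least 2-fold higher, with a median of 1.64. Igf2 had a ratio of 5.84 there and Zim1 of 3.2.

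Igf2 binding proteins also differed. In the IGF list 5 of 10 members were at least 2-fold higher and none lower (median 1.02). Its medians were 1.00, -0.41 and 2.35 in immune, endothelial and muscle stem cells, over 7, 3 and 8 genes with enough UMIs. Igfbp5 stood at 1888, 214, 1190 and 583 cpm at days 0, 2, 5 and 7, and Igfbp6, which prefers IGF2, at 4642, 809, 1958 and 1545 cpm. Both were lowest at day 2. Igfbp7 was the only measured member below 0, at a log2 ratio of -0.91 (-0.96 to -0.87). Igf1 itself, a major muscle growth factor of FAPs and macrophages, had a ratio of 0.41 (0.31 to 0.51).

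Inflammatory genes split by kind. Of 15 chemokines 2 were at least 2-fold higher and 5 lower (median -0.59). Ccl2, which recruits monocytes, stood at 563, 551, 225 and 177 cpm at days 0, 2, 5 and 7, (log2 ratio -1.29, -1.41 to -1.17), and -0.37 at like depth. Cxcl12, which retains progenitor and immune cells, stood at 501, 1157, 501 and 609 cpm. Of 18 cytokines and mediators 4 were higher and 4 lower. Ptgs2 (cyclooxygenase 2) stood at 63.9 and 302 cpm (2.24, 2.09 to 2.39) and Tnfaip6, which crosslinks hyaluronan, at 234 and 780 cpm (1.74, 1.65 to 1.82). Il11 stood at 31.3 and 5.14 cpm, but 1 FAP held 81.2% of its day 2 UMIs, and at like depth it stood at 2.35 and 7.18 cpm (log2 ratio 1.61, -0.04 to 3.38).

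Of 8 acute-phase genes 2 were at least 2-fold lower at day 5 and 1 higher, and 4 were above 0 (median -0.24). Hp (haptoglobin) stood at 0.490, 122, 17.5 and 91.7 cpm at days 0, 2, 5 and 7 (log2 ratio -2.80, -3.24 to -2.40), and Serpina3n, a protease inhibitor, at 13.3, 231, 67.9 and 157 cpm. Both were high at days 2 and 7 and lower at day 5. Saa1, a serum amyloid, was the higher member, at 2.71 and 13.4 cpm. It rested on few cells, with UMIs in 15 FAPs at day 2 and 21 at day 5. In each day 5 FAPs held 56% and 51.3% of them. In cells of like depth 4 of 6 measured acute-phase genes were at least 2-fold lower at day 5. Complement genes made by stroma were higher, such as Cfb at 24.9 and 140 cpm (2.49, 2.25 to 2.73) and C4b at 26.7 and 107 cpm (2.00, 1.75 to 2.24), with 5 of 12 higher and 3 lower. Of the 3 lower ones, C1rb and C1s2 are near-copies of C1ra and C1s1. C1s2 stood at 59.5 and 6.51 cpm where C1s1 stood at 207 and 617 cpm, and since counting can split reads between such copies, both are uncertain. The other was Cfp, found in 18.8% of thinned immune cells and 1.05% of FAPs at day 2. Of 14 MHC genes 1 was at least 2-fold higher and 3 lower (median 0.15). Cd74, the class II invariant chain of antigen-presenting cells, stood at 279 and 107 cpm, with 39.7% of its day 2 UMIs in 5 FAPs. The part of the macrophage RNA given above was not tested.

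Of 14 Wnt pathway genes 5 were at least 2-fold higher and 2 lower (median 0.26). Wnt11, a ligand, had the highest ratio, at 4.89 and 26.7 cpm (2.45, 1.90 to 3.02). Sfrp2, a secreted Wnt modulator, stood at 39.3, 1019, 118 and 77.3 cpm at days 0, 2, 5 and 7, with a log2 ratio of -3.11 (-3.27 to -2.96), and was found in 40.3% and 5.92% of thinned FAPs against 0.922% and 0.265% of immune cells. Sfrp4, of the same family, ran opposite, at 110 and 453 cpm (2.05, 1.93 to 2.17). At like depth both kept these directions, at -2.36 and 2.33. Tgfbr2, a TGF-beta receptor, stood at 126 and 418 cpm (1.73, 1.62 to 1.85), and the ligand Tgfb1 at 50.9 and 23.3 cpm (-1.13, -1.52 to -0.76). At like depth Tgfbr2 had a ratio of 1.24 (1.04 to 1.44). Tgfb1 came within 2-fold there, at -0.56 (-1.15 to 0.007).

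Among genes of other FAP fates, Acta2, the smooth muscle actin of myofibroblasts, stood at 7.96, 96.5, 10.3 and 54.0 cpm at days 0, 2, 5 and 7 (-3.23, -3.81 to -2.71). Without thinning, it was found in 173 FAPs at day 2 and 18 at day 5, in cells of unlike depth. At like depth its log2 ratio was -2.94 (-3.64 to -2.32). Of 8 adipogenic genes 4 were at least 2-fold lower and 1 higher (median -0.97). Pparg and Cebpa, regulators of fat cell formation, stood at 12.9 and 1.37 cpm and at 63.2 and 11 cpm. Macrophages express both too, and Cebpa was lower in immune cells by -2.0. Of the 10 measured tendon genes 5 were at least 2-fold higher and none lower (median 0.95), and at like depth 1 of 7 was higher (median 0.24). Tnmd, which defines tendon cells, had 75.3% of its day 2 UMIs and 59.1% of its day 5 UMIs in 5 FAPs. A few FAP-labelled cells with tendon RNA were thus present on both days.

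Immediate early genes, which are also induced by tissue digestion, were at least 2-fold higher in 8 of 22 cases and lower in none (median 0.92). Egr1 stood at 855 and 2510 cpm (1.55, 1.51 to 1.60) and Fos at 1173 and 2726 cpm (1.22, 1.17 to 1.26). The list's median was 1.03 in immune, 0.27 in endothelial and 1.60 in muscle stem cells. Hspa1b, a heat shock gene with a near-identical copy, Hspa1a, stood at 52.7 and 419 cpm, and its ratios in the other 3 classes ran from 3.13 to 3.17 beside 2.99 in FAPs. Glycolysis genes were at least 2-fold lower in 9 of 20 cases and higher in 2 (median -0.48). Eno1 (enolase) stood at 212 and 55.2 cpm (-1.94, -2.19 to -1.71), and was lower by -1.67, -1.72 and -3.30 in immune, endothelial and muscle stem cells. At like depth 2 of 17 were at least 2-fold lower. The 2 higher members were Vegfa, the vessel growth factor, at 13.8 and 67.9 cpm, and Hk2 (hexokinase 2), at 58.5 and 233 cpm. The ratios of Hspa1b and Eno1 thus had the same direction in all 4 classes, while the immediate early list was near 0 in endothelial cells. A shift of the libraries themselves was not tested.

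Ribosomal protein genes had a median of -0.63, with 17 of 81 at least 2-fold lower and 5 higher. A FAP thinned to 1000 UMIs held a median of 259 UMIs of these genes at day 2 and 187 at day 5. Rpl4 stood at 2452 and 712 cpm (-1.78, -1.85 to -1.72), while Rps28 stood at 1039 and 4139 cpm (1.99, 1.96 to 2.03). The list's median was 0.39 in immune, -0.48 in endothelial and 0.15 in muscle stem cells. Rps28 was higher by 2.67, 1.82 and 2.57 in immune, endothelial and muscle stem cells. Some unnamed loci were shifted the same way in all 4 classes. Gm10260 stood at 1502 cpm in day 2 FAPs and 70.6 at day 5, and its ratios in the other 3 classes were -2.57, -4.30 and -3.53. Gm42418 stood at 277 and 3917 cpm, with ratios of 3.24, 3.58 and 3.58 elsewhere. Loci that share sequence with ribosomal RNA or protein genes are uncertain, because reads could be split between copies.

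Outside the lists, among genes of 100 cpm and 50 UMIs or more that FAPs expressed at no less than 0.5 times the top other class, the highest named genes included Hmcn2, an extracellular hemicentin, at 26.9 and 321 cpm (3.58, 3.37 to 3.78) and Gpc3, a glypican coreceptor, at 22.4 and 221 cpm (3.31, 3.08 to 3.54). Both were rich in low-UMI cells, with 613 and 480 cpm in the shallowest depth group of day 5 FAPs and 209 and 121 in the deepest. The lowest included Nt5dc2 at 144 and 5.14 cpm (-4.81, -5.65 to -4.08), which was also lower in immune cells by -3.62, and Olfml3, an olfactomedin-like matrix protein, at 458 and 99.8 cpm (-2.20, -2.37 to -2.03). S100a4, a calcium-binding protein of fibroblasts and macrophages, stood at 859 and 188 cpm (-2.20, -2.32 to -2.07). It was found in 56.8% of thinned immune cells and 43.0% of FAPs at day 2, and the part of macrophage RNA in it was not tested. Hbb-bs, a globin gene, stood at 172 and 14.4 cpm, but 5 cells held 99.7% of its day 2 UMIs.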

How the data were processed

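Single-cell libraries (10x 3' v2) of sorted live cells were deposited as 1 matrix per day. Raw tables, as the authors deposited them, give a UMI count for each gene symbol in each barcode. The normalized tables of days 2 and 5, also deposited, are on a natural log scale, and were checked against the raw counts as the log of 1 plus the scaled count. The deposited metadata give the mitochondrial share as a fraction, and a cell type label. Cell Ranger 2, Seurat 2.3.4, R 3.6.2 and mm10 are named in the submitters' processing notes, without roles. Of the metadata columns, 8 were not used, and 21 and 13 barcodes without a label at days 2 and 5 were left out. Filters on doublets are not given in the sources used here, and no doublet caller was run.

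UMI counts were summed over the cells labelled FAPs and scaled to counts per 1000000 UMIs (cpm). The log2 ratio of day 5 over day 2 has a 95% interval from the exact binomial interval (Clopper-Pearson) of 1 day's part in the summed count (scipy 1.17.1), and a count of 0 was replaced by 3. Genes with at least 50 UMIs over both days were measured, and called at 2-fold. Levels in cpm are not scaled by length, so levels are compared within a gene between days and not between genes. For shares of cells, each cell was thinned to 1000 UMIs (seed 1). No FAP was left out and 1 immune cell was. Ratios and thinning were tested on simulated data. The 37 gene lists and the FAP comparison were chosen with earlier results of these data known. Genes were named by rule: the 4 highest and 4 lowest members of each list, the 10 highest and 10 lowest outside the lists with at least 100 cpm, 50 UMIs and 0.5 times the level of the top other class, and some by name. Promoters (RefSeq, GRCm38.p6) were matched by symbol. Alternatives were 10 planned ones and 2 chosen after the data were seen.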

Additional observations from a re-analysis of the deposited data

Results flagged for a closer look

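Among the named genes only, the ratios of 8 differed by at least 2-fold in opposite directions in FAPs and in another class of the same libraries. The other measured genes were not searched for this. None of these differences between classes was tested, and no cause was weighed. Values are the log2 ratio of day 5 over day 2 in FAPs minus that in the other class. Against immune cells the difference was -2.33 for Cxcl12, -4.98 for Il1rl1, -4.05 for Tpm2, -9.43 for Hbb-bs and -3.73 for Tmem176a. It was 4.81 for Tgfbi against endothelial cells. Against muscle stem cells and progenitors it was -6.04 for Acta2 and 2.77 for Cdkn1a. Acta2 was lower in FAPs by -3.23 and higher in muscle stem cells by 2.81, and Cdkn1a, a stress-induced cell-cycle inhibitor, was higher in FAPs by 1.44 and lower in muscle stem cells by -1.33. Hbb-bs and Il1rl1 rested on few FAPs: 5 cells held 99.7% and 83.5% of their day 2 UMIs, and in FAPs with 5000 to 12000 UMIs their ratios were 3.61 (1.45 to 6.81) and 1.03 (-0.39 to 2.45).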

How the results depend on the processing

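Of 10116 measured genes, 1494 were at least 2-fold higher and 1032 lower in FAPs at day 5. After thinning to 1000 UMIs they were 660 and 371 of 3752, and with a minimum of 200 UMIs 744 and 546 of 5889. Among FAPs with 5000 to 12000 UMIs they were 535 and 441 of 6736. With FAPs holding immune marker UMIs left out (53 and 615 cells remained), 345 of 5430 genes were lower. Fewer genes were measured in each of these settings, so a smaller count alone does not show a smaller difference. Resting stroma members higher went from 14 of 22 to 4 of 21 in the 5000 to 12000 UMI cells. Basement membrane members went from 8 to 5 of 15 there. Mitosis members lower went from 17 to 1 of 2 measured by thinning, 7 of 8 with 200 UMIs, 5 of 6 in the 5000 to 12000 UMI cells, 6 of 14 without FAPs holding mature muscle UMIs, and 0 of 1 without FAPs holding immune UMIs, where the median was 0.34. The 6 of 14 is limited by the floor of 3 UMIs for a count of 0, since few day 5 FAPs remained. Glycolysis members lower went from 9 of 20 to 4 of 15 without immune UMIs and 2 of 17 in the 5000 to 12000 UMI cells. Type I interferon members higher went from 24 of 36 to 7 of 12 measured by thinning and 15 of 24 with 200 UMIs. They were 14 of 27 without immune UMIs and 14 of 28 without muscle UMIs. Interferon gamma members went from 12 of 22 to 5 of 14 by thinning. Imprinted members went from 10 of 17 to 6 of 16 without muscle UMIs. Some log2 ratios reversed among named genes that were beyond 2-fold in all FAPs and still measured in the setting. In the 5000 to 12000 UMI cells they reversed for Bmp2 (-0.56), Bmp4 (-0.11), Myoc (-0.15) and Pcolce2 (-0.030). Inmt (-0.62 there) had 33 UMIs and was not measured. Without muscle UMIs they reversed for Postn (-0.15) and Tnc (-0.53), and without immune UMIs for Chad (-0.59). Without muscle UMIs the values were also above 0 for Ccnb1 (0.23), Cox6b2 (0.35), Inhba (0.51), Mcm5 (0.093) and Mvd (0.14). These genes had UMIs in 1, 7, 11, 6 and 8 of all day 5 FAPs, and the filter kept 115. A count of 0 was replaced by 3 UMIs, so these values do not show a higher level at day 5. The filter on muscle UMIs also selects by depth. Genes within 2-fold could change sign too, as Cthrc1 (-0.17, and 1.12 in the 5000 to 12000 UMI cells). The cause was not tested. Of 206 named genes beyond 2-fold, 194 stayed so when centred, 115 of 164 measured in the 5000 to 12000 UMI cells (160 in the same direction), 149 of 185 without muscle UMIs (178) and 128 of 154 without immune UMIs (153). No paired analysis was possible because each day has 1 library, and for the same reason no replicate could be left out. Age, day and library cannot be told apart.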

Other observations

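Of 5 measured metallothionein and zinc transporter genes 2 were at least 2-fold higher in FAPs at day 5, and at like depth 1 of 3. Mt1, which binds zinc and copper, stood at 3872 cpm without injury, 1961 at day 2, 5109 at day 5 and 2003 at day 7, with a log2 ratio of 1.38 (1.35 to 1.41) between days 5 and 2, and of 1.28 in FAPs of like depth. Cholesterol genes were split, with 8 of 22 at least 2-fold higher and 3 lower. Insig1, which restrains sterol synthesis, stood at 15.6 and 62.4 cpm. Bmp2, a BMP ligand, stood at 11.2 and 52.5 cpm, but it was at 92.5 cpm in the shallowest and 14.8 in the deepest of the 4 depth groups of day 5 FAPs.

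Cox8b and Cox6a2, cytochrome oxidase subunits of mature muscle, were found in day 5 FAPs at 18.5 and 17.5 cpm. Cox8b had no UMI at day 2, and against a floor of 3 UMIs over the group it was at least 56.8-fold higher at day 5. Mature muscle markers in FAPs summed to 30.2 cpm at day 2 and 876 cpm at day 5, and their part in these levels was not tested.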
